A study of Mus musculus with 19 samples.

Results

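The nuclear-encoded subunits of the mitochondrial respiratory chain were described in 19 RNA sequencing libraries. These came from 3 brain regions, cerebellum (CB), prefrontal cortex (PFC) and striatum (STR), of wild-type (WT) mice and of mice with the SCA17 knock-in (KI). Members were the protein-coding genes whose GENCODE M21 name follows the subunit names of complex I (Nduf with the letter a, b, c, s or v and a number), complex II (Sdha to Sdhd), complex III (8 Uqcr names) or complex IV (the Cox4i, Cox5, Cox6, Cox7 and Cox8 names), with at least 10 counts in at least 3 libraries. Of 66 genes with such names among the 41128 genes counted, 65 met this minimum. The gene left out, Cox8c, had 1 count in 1 library. The members comprised 35 genes of complex I, 4 of complex II, 8 of complex III and 18 of complex IV, where Ndufa4 was placed because its protein is a complex IV subunit despite its name. They were chosen by name and count minimum and not by an expression difference, although with earlier results of these data known. All 65 were among the 16841 genes tested.

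SCA17 is an ataxia caused by a longer glutamine tract in the general transcription factor TBP, and the KI mice carried such an expanded Tbp allele in the germline, so that the allele was present in every cell type. All mice were C57BL/6 and 3 months old, and WT mice of the same age lacked the allele. The cerebellum had 3 WT and 4 KI libraries, while each other region had 3 libraries per genotype. The study asked how gene expression in each region differed between the genotypes. Libraries came from whole tissue, in which fewer cells of a type and less RNA per cell cannot be told apart.

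The respiratory chain passes electrons from NADH and succinate to oxygen in the inner mitochondrial membrane. Complex I takes electrons from NADH, complex II from succinate, complex III hands them from ubiquinol to cytochrome c, and complex IV delivers them to oxygen; all but complex II move protons, which drive the ATP synthase. Most subunits are encoded in the nucleus, while a few of the membrane core of complexes I, III and IV are encoded by mitochondrial DNA. Neurons depend on this chain for most of their ATP, and several complex IV subunits exist as a widely expressed form and a form restricted to tissues such as muscle or testis.

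A library held 10639110 to 17431284 counts (median 15082703), and the 65 members took between 1.1% and 1.36% of the counts of a library. Region labels were checked against cell type markers. The summed level of 5 Purkinje cell markers was 5496 to 5870 CPM (counts relative to the TMM-scaled library size) in WT cerebellum, 896 to 934 in WT striatum and 437 to 605 in WT prefrontal cortex. Markers of striatal projection neurons summed to 6604 to 7644 CPM in WT striatum, and markers of cortical excitatory neurons to 1157 to 1879 CPM in WT prefrontal cortex. Choroid plexus markers (Ttr, Kl, Folr1) ranged from 1509 to 8757 CPM among WT striatum libraries and from 5.10 to 1904 CPM among WT cerebellum libraries. Tbp itself, whose repeat is altered but whose gene is kept, had 58.5 ± 5.23 CPM in WT and 52.9 ± 3.46 in KI cerebellum (SD, n = 3 and 4), a log2 difference of -0.14 that did not pass edgeR's quasi-likelihood test (adjusted p = 0.687). A count of Tbp reads does not show the repeat and is no check of genotype.

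Levels of different genes were compared as CPM per kb of exon. The median over the 65 members was 105 CPM per kb as the mean of the 3 WT regions, and 56 members lay over 20. The highest levels were those of small complex IV subunits and of Ndufa1, a small membrane subunit of complex I. Cox8a reached 749 CPM per kb, Cox6a1 669, Ndufa1 410, Cox6b1 383 and Cox4i1 363. The 6 lowest were restricted complex IV isoforms. Cox6a2 had 6.03 CPM per kb, Cox7a1 5.04, Cox4i2 3.89, Cox6b2 3.27, Cox7b2 2.91 and Cox8b 2.19. Members were short, with a median of 1291 exon bases against 4121 over all genes tested. With the length of the longest transcript in place of all exons the median was 137 CPM per kb, and the Spearman correlation of the 2 sets of levels over the 65 genes was 0.952.

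The value of 1 member could not be taken at face value. Ndufs5, an accessory complex I subunit on chromosome 4 (GRCm38, chr4:123712710-123718202, minus strand), shares 319 aligned bases, which cover its whole coding sequence of 318 bases, with the processed pseudogene BC002163 inside chr16:42955631-42955949. The copies differ at 2 bases, written T81C and A105G with positions counted from the first coding base of Ndufs5 and the Ndufs5 base first, so that, within the 319 shared bases, reads that cross neither of them fit both genes equally. The Ndufs5 transcript of 680 bases also has stretches outside the shared part. The sequence around each is shown because these are the bases that separate the genes within the shared part, with the differing base in capitals, from the GRCm38 transcript sequences of GENCODE M21.
Ndufs5 around the first difference: agaacagccctaTaagaacgccgct
BC002163 around the first difference: agaacagccctaCaagaacgccgct
Ndufs5 around the second difference: tcggtgccacgcAtttgaaaaagag
BC002163 around the second difference: tcggtgccacgcGtttgaaaaagag

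The share of counts given to each of the 2 genes differed widely between libraries. BC002163 took 41.8%, 83.0% and 83.9% of the summed level in the WT cerebellum libraries and 41.6%, 40.2%, 81.6% and 79.8% in the KI cerebellum libraries. In WT striatum the shares were 2.31%, 84.0% and 44.6%, and in WT prefrontal cortex, in the same replicate order, 2.09%, 85.8% and 42.4%. All 6 KI libraries of the striatum and prefrontal cortex lay between 1.39% and 3.29%. The shares thus fell near 3 levels, and striatum and prefrontal cortex libraries of the same genotype and replicate number fell on the same level.

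**Figure D1:**
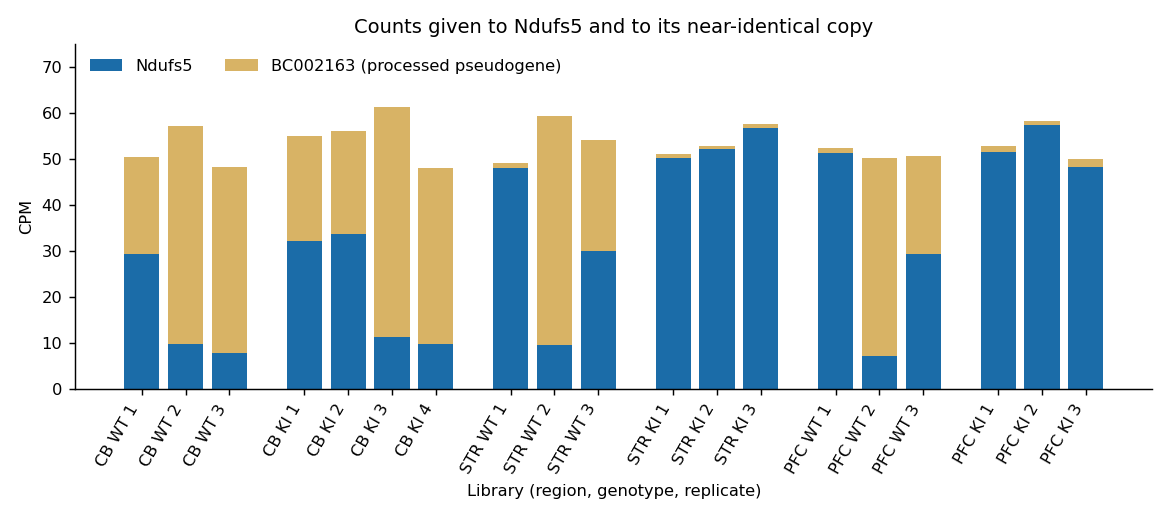
Level in CPM of Ndufs5 (blue) and of its processed pseudogene BC002163 (tan), stacked for each of the 19 libraries on the horizontal axis. The parts vary widely while the sum stays between 48.1 and 61.3 CPM.

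Ndufs5 alone had a pooled standard deviation within groups of 0.96 on the log2 CPM scale and BC002163 1.62, whereas their sum had 0.12, close to the median of 0.12 over all members. As deposited, Ndufs5 was 0.47 higher on the log2 scale in KI cerebellum, 0.86 in KI striatum and 0.84 in KI prefrontal cortex, and none passed (adjusted p = 0.882, 0.811 and 0.928). With the pseudogene added, an alternative chosen after seeing the data, these became 0.09, -0.01 and 0.07. The difference between WT cerebellum and WT striatum went from -0.90 to -0.06 in the same way. Why the share differs between mice was not tested. Another member with a sizeable copy was Ndufa12, an accessory complex I subunit whose pseudogene Gm15920 held 14.3% as many counts as the gene. Its log2 difference in KI cerebellum was 0.15 as deposited and 0.00 with the copy added, and in KI striatum 0.08 and 0.20. The copies of other members held at most 6.88% as many counts as the member, the largest being Gm6969 for Cox7a2l.

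Genotypes were first compared within single regions. No subunit passed in any region, but the differences were small and mostly above 0. In the cerebellum, 57 of 65 members were higher in KI, with a median log2 difference of 0.10 against 0.01 over all genes tested, of which 51.5% were above 0. In the striatum 52 were higher (median 0.09, or 0.04 with the libraries adjusted for the GC content and length of genes, all genes -0.01, 48.5% above 0), and in the prefrontal cortex 53 (median 0.08, all genes 0.00, 50.4% above 0). A log2 difference of 0.10 is a level 6.87% higher. As members share libraries, and the striatum and prefrontal cortex appeared to share mice, these counts are not of independent observations.

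In tests across all genes, 0 of 65 members were called in the cerebellum, striatum or prefrontal cortex at a Benjamini-Hochberg adjusted p under 0.05 (edgeR, quasi-likelihood test), where 0.831%, 0.582% and 0.107% of all genes were called. DESeq2 also called 0 in each region. At an unadjusted p under 0.05, 4 members were higher in KI cerebellum, Ndufa11, Uqcrc2, Ndufs1 and Ndufb3 (4.86% of all genes), and 1, Cox4i2, was lower (5.26%). In the striatum 2 were higher, Ndufv1 and Ndufa11, and 0 lower (3.37% and 4.76% of all genes), and in the prefrontal cortex Ndufa11 alone was higher and 0 lower (2.53% and 3.4%). All KI libraries were above all WT libraries in the cerebellum for Uqcrc1, Uqcrc2 and Ndufs1 (5.82% of all genes) and below for Cox4i2 (6.47%). In the striatum they were above for 6 members, Ndufa8, Ndufa11, Ndufs5, Uqcrc1, Uqcrfs1 and Cox7a1 (5.65%), and below for Ndufs1 and Cox6a2 (8.46%). In the prefrontal cortex they were above for Ndufv1, Ndufv2 and Sdhd (4.38%) and below for 0 (4.32%). Ndufs1 thus stood above in one region and below in another. In tests of the difference in KI effect, 0 members were called between cerebellum and striatum (0.0119% of all genes), between cerebellum and prefrontal cortex (0.0178%) or between striatum and prefrontal cortex (0%). In the same order, the smallest unadjusted p of a member in the quasi-likelihood test was 0.0528 (Ndufs1), 0.116 (Ndufs1) and 0.166 (Cox7a1).

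**Figure D2:**
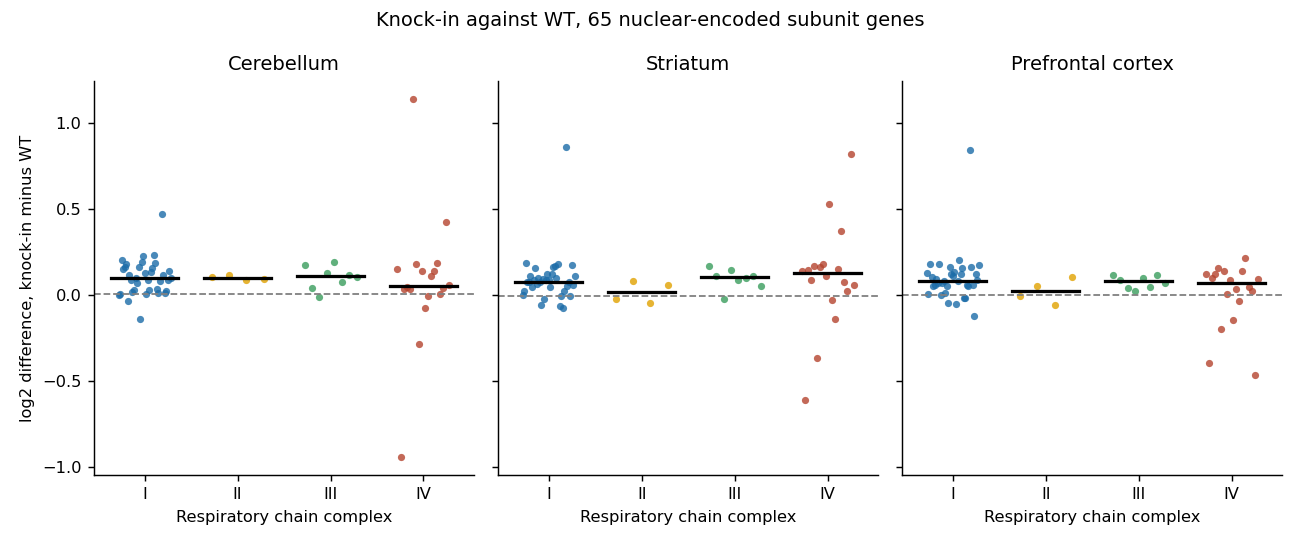
Log2 difference of KI minus WT (vertical axis) for each of the 65 subunit genes, by complex, in the cerebellum, striatum and prefrontal cortex. Each point is a gene, black bars are medians of the complex and the dashed line is the median of all genes tested; most points of complexes I and III lie a little above it, and points far from it are restricted complex IV isoforms or Ndufs5.

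The small shift was spread over the complexes. In complex I, 32 of 35 subunits were higher in KI cerebellum (median 0.10), 29 in KI striatum (0.08) and 30 in KI prefrontal cortex (0.08). At the ends of the range were Ndufs5 (0.47, 0.86 and 0.84 as deposited, without its copy) and, at the low end, Ndufb2 at -0.14 in the cerebellum, Ndufs3 at -0.08 in the striatum and Ndufs8 at -0.12 in the prefrontal cortex. Ndufs3 and Ndufs8 are core subunits of the arm that leads electrons to ubiquinone. None of these passed.

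Complex II had medians of 0.10, 0.02 and 0.02 in the cerebellum, striatum and prefrontal cortex over its 4 genes. Sdhb, the iron-sulfur subunit, was at 0.12 in the cerebellum and 0.08 in the striatum, and the membrane anchor Sdhd at 0.10 in the prefrontal cortex. The other anchor, Sdhc, was lowest in each region at 0.09, -0.04 and -0.06. Complex III had medians of 0.11, 0.10 and 0.08. Its core subunit Uqcrc2 was highest in the cerebellum at 0.19, and the small subunit Uqcr10 in the striatum at 0.17 and prefrontal cortex at 0.11. The lowest were Uqcrb, a subunit beside the ubiquinone pocket, at -0.01 in the cerebellum and -0.03 in the striatum, and the core subunit Uqcrc1 at 0.02 in the prefrontal cortex. Complex IV had medians of 0.05, 0.12 and 0.07, and its extremes were restricted isoforms with few counts. Cox6a2 was at 1.1 in the cerebellum, Cox8b at 0.82 in the striatum and Cox7b2 at 0.21 in the prefrontal cortex. The lowest were Cox4i2 at -0.94 and -0.61 in the cerebellum and striatum and Cox8b at -0.47 in the prefrontal cortex. None of the named genes of complexes II to IV passed.

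With the KI effect averaged over the 3 regions, 57 of 65 members were higher (49.6% of all genes), with a median of 0.09 against 0.00 over all genes. Again 0 were called, where 1.35% of all genes were, while 17 were higher and 1 lower at an unadjusted p under 0.05 (5.94% and 6.34% of all genes). The 95% interval of the averaged difference lay above 0 for the same number, 17, below 0 for 1, and included 0 for 47. The fit took all libraries as independent, although the striatum and prefrontal cortex appeared to share mice. Averaged standard errors, intervals and p-values, here and for single members below, may therefore be too small. Apart from Ndufs5 and the 6 restricted isoforms, no interval reached beyond 0.34, so an averaged increase above that on the log2 scale was outside the interval for each of the other 58 members. A KI level above WT in all 3 regions was seen for 46 members (17.4% of all genes), and for 2, Cox4i2 and Ndufb2, the KI level was lower in all 3.

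Ndufa11, an accessory subunit in the membrane arm of complex I, was the member with the smallest p in the averaged comparison. In the cerebellum it had 117, 130 and 114 CPM in WT and 137, 142, 150 and 124 in KI libraries. The striatum had 147, 147 and 137 CPM in WT and 156, 168 and 166 in KI. The prefrontal cortex had 135, 133 and 137 CPM in WT and 158, 167 and 135 in KI. The genotypes did not overlap in the striatum and overlapped by 1 KI library in each of the other regions. The log2 difference was 0.20 ± 0.08 (SE) in CB, 0.18 ± 0.08 in STR, 0.18 ± 0.08 in PFC and 0.19 ± 0.05 averaged (95% interval 0.09 to 0.29). The averaged difference missed the threshold (adjusted p = 0.0611) and passed with DESeq2 (0.0127), and over 31 alternatives its adjusted p ranged from 0.0117 to 0.137.

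Ndufa11 lies at chr17:56717767-56722141 (GRCm38), on the chromosome of Tbp and 41.2 Mb from it. Of the other 5 members on chromosome 17, Ndufb10 is nearest to Tbp at 9.22 Mb, with log2 differences of 0.07, -0.06 and 0.01 in the cerebellum, striatum and prefrontal cortex. Ndufv3 lies at 16.0 Mb and had 0.10, 0.11 and 0.17. Ndufa7 at 18.3 Mb had 0.01, 0.06 and 0.00, Ndufv2 at 50.6 Mb had 0.14, 0.06 and 0.09, and Cox7a2l at 68.0 Mb had 0.11, -0.14 and -0.04. Values of chromosome 17 members thus spanned both signs, and whether linkage to the altered allele played a part was not tested.

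Cox4i2, the isoform of complex IV subunit 4 that is best known from lung and from hypoxia, went the other way. It had 3.21, 4.19 and 3.56 CPM in WT and 1.52, 2.72, 2.02 and 1.33 in KI cerebellum. In the striatum it had 2.40, 3.72 and 4.25 CPM in WT and 1.89, 2.64 and 2.25 in KI, and in the prefrontal cortex 1.44, 2.24 and 2.56 in WT and 1.58, 1.42 and 1.74 in KI. All KI libraries were below all WT libraries in the cerebellum, and the genotypes overlapped in the other regions. The log2 difference was -0.94 ± 0.27 (SE) in the cerebellum (adjusted p = 0.149) and -0.65 ± 0.17 averaged (adjusted p = 0.0741). The averaged value passed with DESeq2 (0.0297), and over 31 alternatives its adjusted p ranged from 0.0297 to 0.176. Markers of endothelial and mural cells, 5 in all, had a median log2 difference of -0.05 in CB, -0.08 in STR and -0.19 in PFC with 0 called, and their part in the Cox4i2 values was not tested.

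The median over members also differed between libraries of 1 group by as much as between genotypes. As a deviation from the mean of the region on the log2 scale, it was -0.10, 0.09 and -0.12 in WT and 0.07, 0.09, 0.14 and -0.12 in KI cerebellum. In the striatum it was 0.03, -0.03 and -0.10 in WT and -0.09, 0.07 and 0.12 in KI, and in the prefrontal cortex -0.03, -0.02 and -0.07 in WT and -0.01, 0.19 and -0.04 in KI. The genotypes overlapped in each region. Without KI replicate 2 the median difference of the prefrontal cortex went from 0.08 to -0.01, with 30 of 65 members higher. Leaving out other libraries gave 0.06 to 0.12 there. The median was 0.06 (without WT replicate 1) to 0.17 (without WT replicate 2) in the cerebellum and 0.04 (without KI replicate 3) to 0.13 (without KI replicate 1) in the striatum.

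**Figure D3:**
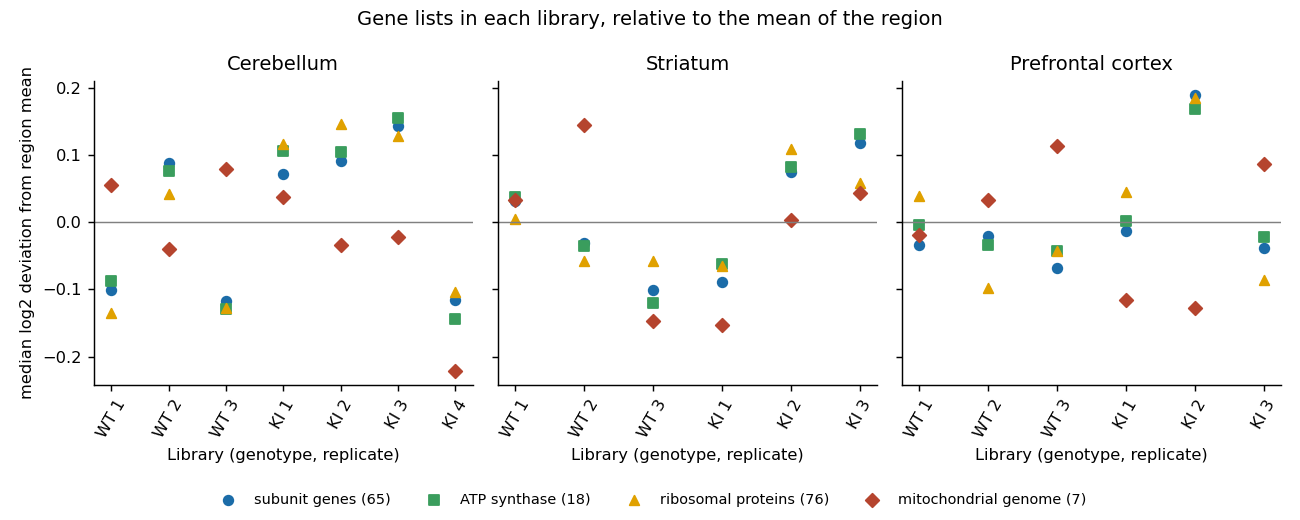
Median log2 deviation of 4 gene lists from the mean of the region (vertical axis) in each library (horizontal axis), for the 65 subunit genes, 18 ATP synthase genes, 76 ribosomal protein genes and 7 protein genes of the mitochondrial genome. Circles, squares and triangles lie on the same side of 0 in most libraries, as in KI replicate 2 of the prefrontal cortex at 0.19 for the subunits. They part in others, such as WT replicate 1 of the prefrontal cortex, with subunits at -0.03 and ribosomal proteins at 0.04. Diamonds go the other way in some libraries, including KI replicate 2 of the prefrontal cortex at -0.13.

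Of the other nuclear gene lists, ATP synthase and ribosomal proteins had differences of similar size, and the remaining lists were nearer to 0 in most regions. ATP synthase, which turns the proton gradient into ATP, had medians of 0.11, 0.11 and 0.10 in CB, STR and PFC, with 17, 17 and 16 of 18 genes higher and 0 called. Cytosolic ribosomal proteins, which have no part in respiration, had medians of 0.15, 0.08 and 0.09, with 66, 63 and 57 of 76 higher and 1 called, Rpl29 in the cerebellum. Assembly factors of the complexes (42 tested) had medians of 0.01, 0.02 and 0.03, regulators of mitochondrial biogenesis (14) -0.05, -0.07 and -0.01, and mitochondrial mass genes of the outer membrane and matrix (12) 0.06, 0.01 and 0.07, with 0 called in each. The 9 electron carriers and supercomplex factors had medians of 0.03, 0.08 and 0.04, and 18 citric acid cycle genes 0.07, -0.01 and 0.02, also with 0 called. The subunits' differences were of the size seen in ribosomal protein genes. Ribosomal protein genes are also short, with a median of 1806 exon bases, and the part of gene length in these differences was not tested.

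Cell type markers differed between genotypes in some of the same regions. In KI cerebellum, 4 of 4 microglial markers were called higher (median 1.00 on the log2 scale, summed level 81.2 to 107 CPM against 52.2 to 55.3 in WT), and 0 of 5 Purkinje markers were higher, with 1 called lower (median -0.50, summed level 3378 to 4729 against 5496 to 5870 CPM). In KI striatum the 5 markers of projection neurons summed to 3176 to 4769 CPM against 6604 to 7644 in WT (median -0.67, 0 called). There, 4 of 4 cortical excitatory markers (median 0.36) and 3 of 3 blood markers (0.71) were higher. In KI prefrontal cortex, 5 of 5 markers of striatal projection neurons were higher (0.64) and 0 of 4 astrocyte markers were (-0.35). None of these last 4 lists had a marker called. The part of tissue composition in the subunit differences was not tested.

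The regions were then compared in WT mice alone. Unlike between genotypes, a good number of subunits passed between regions, although a smaller share than of all genes. Between cerebellum and striatum, 8 members were called higher in the cerebellum and 14 lower (27.8% and 28.7% of all genes). Between cerebellum and prefrontal cortex, 12 were higher and 7 lower (25.1% and 26.9%), and between striatum and prefrontal cortex 6 were higher in the striatum and 0 lower (14% and 16.4%). Single libraries moved the counts of lower calls. Against the striatum they were 6 without WT cerebellum replicate 1, 5 without replicate 3, 8 without WT striatum replicate 1 and 9 without replicate 2, and against the prefrontal cortex 4 without WT cerebellum replicate 1, 14 without replicate 2 and 4 without WT prefrontal cortex replicate 1. Numbers of all genes called in these fits are not given here, so a change particular to the members cannot be told from one shared by all genes. Medians were -0.06, 0.05 and 0.04 on the log2 scale, with single subunits called in both directions for the pairs that include the cerebellum. With a WT library of the pair left out, these medians ranged from -0.14 (without WT cerebellum replicate 2) to -0.01 (without replicate 3), from 0.0073 (without WT cerebellum replicate 2) to 0.07 (without replicate 3), and from 0.02 (without WT prefrontal cortex replicate 3) to 0.07 (without WT striatum replicate 3). Of the 65 members, 33 were called in no pair, 17 in 1 pair, and 15 stood apart in 1 region from both others. These classes were not counted over all genes, so their share cannot be set against a background.

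The balance of higher and lower calls depended on whether libraries were adjusted for the GC content and length of genes. With this adjustment, 21 members were higher and 4 lower in the cerebellum against the striatum, and 26 higher and 1 lower against the prefrontal cortex, while the median of all genes moved to 0.12 and 0.13. Of all 16841 genes, 5783 were then higher and 3995 lower against the striatum, and 5455 and 3688 against the prefrontal cortex. The members' medians became 0.10 and 0.17, the first changing sign and lying below the median of all genes. With each curve centred, chosen after seeing the data, the counts were 12 and 13, and 17 and 12, with medians of all genes of -0.03 and -0.01. The count between striatum and prefrontal cortex was 7 higher and 0 lower in both. Numbers of all genes called are not given here for centred curves, nor for this last pair with either adjustment.

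**Figure D4:**
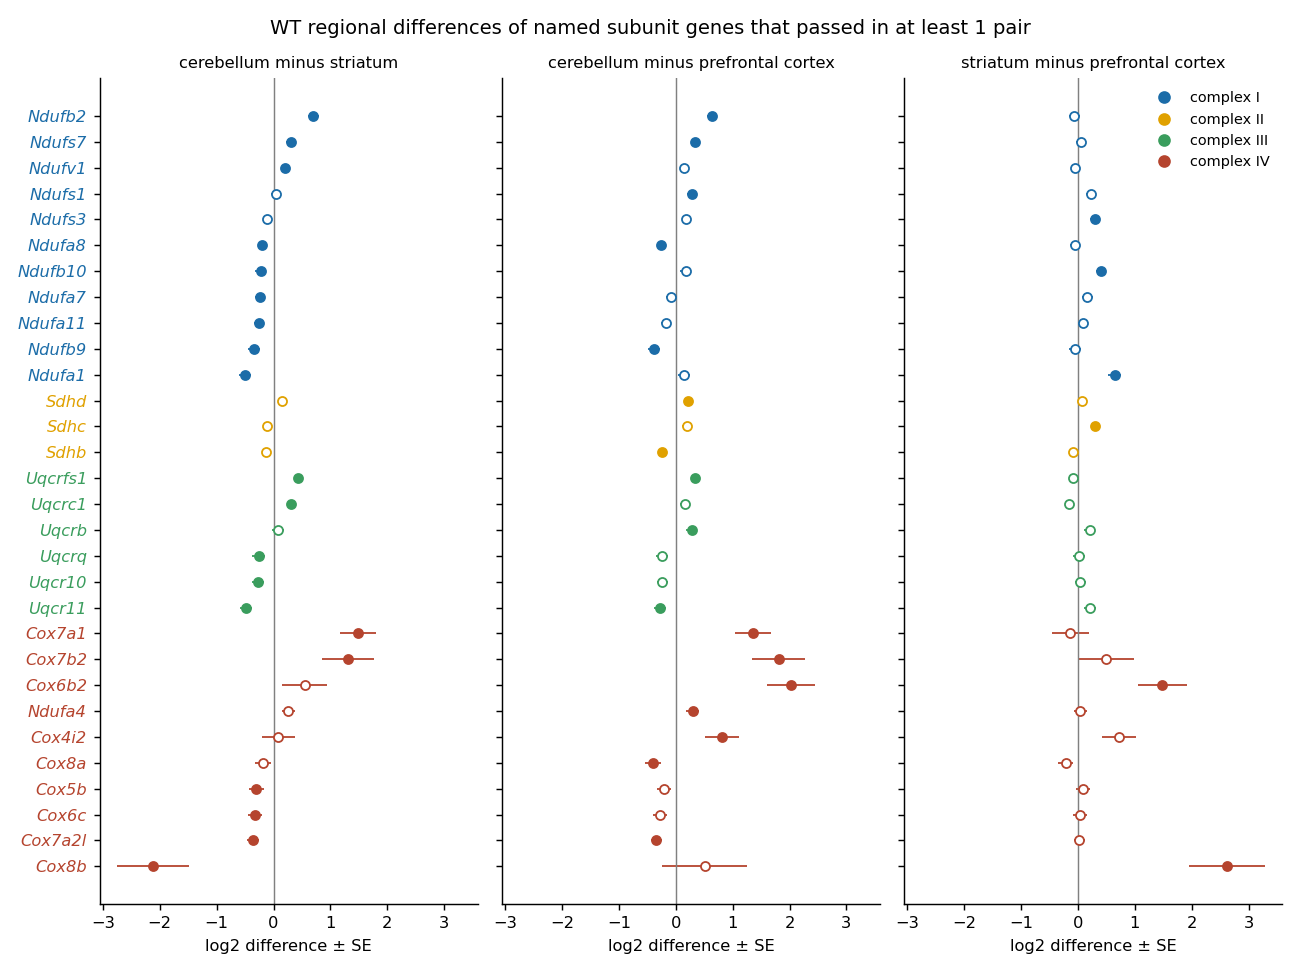
Log2 difference ± SE (horizontal axis) between WT regions for subunit genes that were called in at least 1 pair and are named in the text, other than Cox6a2, whose differences of -5.87 and -5.97 lie outside the axis. Filled points passed the test in that pair and open points did not; differences are largest among restricted complex IV isoforms and go both ways within complexes I and III.

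Among the members called higher in the cerebellum than in both other regions were Ndufb2, Ndufs7, Uqcrfs1, Cox7a1 and Cox7b2. Ndufb2, an accessory subunit at the membrane arm of complex I, had 67.8, 57.9 and 56.9 CPM in WT cerebellum, 39.1, 39.7 and 33.5 in the striatum and 38.3, 40.6 and 38.5 in the prefrontal cortex. The cerebellum did not overlap the others, and the log2 differences were 0.70 ± 0.09 (adjusted p = 4.77e-06) and 0.64 ± 0.09 (adjusted p = 1.55e-05). Uqcrfs1, the Rieske iron-sulfur protein of complex III, had 253, 267 and 259 CPM against 199, 184 and 194 in the striatum and 197, 207 and 211 in the prefrontal cortex. Its differences were 0.43 and 0.34 without overlap. Ndufs7, a core subunit with an iron-sulfur cluster near the ubiquinone site, differed by 0.30 and 0.34. These 3 genes kept both calls with each WT library left out in turn.

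Called lower in the cerebellum than in both other regions were 5 members, Ndufa8, Ndufb9, Uqcr11, Cox7a2l and Cox6a2. Uqcr11, a small subunit of complex III, had 149, 192 and 151 CPM in WT cerebellum, 239, 242 and 211 in the striatum and 208, 195 and 194 in the prefrontal cortex. It did not overlap either region, although WT cerebellum replicate 2 came close to the lowest prefrontal library. The log2 differences were -0.49 (adjusted p = 0.000783) and -0.28 (0.0342), and the latter was lost without WT cerebellum replicate 1 or 3 or WT prefrontal cortex replicate 1 or 2. Ndufb9 differed by -0.34 and -0.39, Ndufa8 by -0.20 and -0.26, and Cox7a2l by -0.36 and -0.34. The call of Ndufa8 against the striatum was lost without WT cerebellum replicate 1 or 3 or WT striatum replicate 2, that of Ndufb9 against the striatum without WT cerebellum replicate 1 or 3, and that of Cox7a2l against the prefrontal cortex without replicate 1 of either region.

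Called higher in the striatum than in both other regions were Ndufa1, Ndufb10 and Cox8b. Ndufa1, encoded on the X chromosome, had 233, 226 and 201 CPM in WT striatum, 153, 174 and 138 in the cerebellum and 138, 143 and 141 in the prefrontal cortex. The striatum libraries were above all others, and the log2 difference was -0.51 ± 0.11 for cerebellum against striatum (adjusted p = 0.000787) and 0.64 ± 0.11 for striatum against prefrontal cortex (adjusted p = 0.000242). Ndufb10 had 212, 194 and 201 CPM in the striatum against 165, 187 and 167 in the cerebellum and 148, 152 and 160 in the prefrontal cortex, and its call against the cerebellum was lost without replicate 1 or 3 of either region. Ndufs3 and Sdhc, which anchors complex II in the membrane, were higher in the striatum than in the prefrontal cortex by 0.30 and 0.31.

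The remaining calls were single pairs. Against the striatum, the cerebellum was higher in Ndufv1, the NADH-binding subunit, by 0.19 and in Uqcrc1 by 0.31. It was lower in Ndufa7 (-0.24), Ndufa11 (-0.26), Uqcrq (-0.26), Uqcr10 (-0.28), Cox5b (-0.30) and Cox6c (-0.32). Against the prefrontal cortex it was higher in Ndufs1, the largest iron-sulfur subunit of complex I, by 0.28, and in Sdhd (0.22), Uqcrb (0.28), Ndufa4 (0.30) and Cox4i2 (0.81). It was lower in Sdhb (-0.24) and Cox8a (-0.41). Cox5b kept its call in 1 of 6 fits with a library left out, and Cox6c, Ndufa7, Uqcrq, Cox4i2, Cox8a and Ndufa4 in 2 of 6. Ndufv1, Uqcr10 and Uqcrb kept theirs in 3 of 6. Ndufa11 lost its call without WT cerebellum replicate 3, Ndufs1 without WT prefrontal cortex replicate 1, and Uqcrc1, Sdhb and Sdhd kept theirs in all 6.

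The restricted isoforms of complex IV varied most between regions. Each has a widely expressed partner, Cox6a1 for Cox6a2, Cox7a2 for Cox7a1, Cox8a for Cox8b, Cox4i1 for Cox4i2, Cox6b1 for Cox6b2 and Cox7b for Cox7b2. Coding sequences of the pairs were between 52.1% and 64.8% identical with shared runs of at most 14 bases, far from the near-identity of Ndufs5 and its copy. Cox6a2, Cox7a1 and Cox8b are known as heart and skeletal muscle isoforms, and Cox6b2 and Cox7b2 as testis isoforms.

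Cox6a2 was near 0 in the cerebellum. It had 5.34, 5.87 and 6.49 CPM in WT striatum, 4.31, 7.94 and 6.67 in WT prefrontal cortex, and 0, 0.20 and 0.08 in WT cerebellum, the last from 0, 3 and 1 counts. The log2 differences of the cerebellum were -5.87 ± 0.64 and -5.97 ± 0.64 (adjusted p = 7.05e-07 and 6.92e-07). Even so it was a small part of the pair, with 1.25% ± 0.26 of the summed level per kb of Cox6a1 and Cox6a2 in WT striatum, 1.28% ± 0.34 in prefrontal cortex and 0.02% ± 0.02 in cerebellum (SD, n = 3).

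Cox7a1 had the opposite pattern, with 3.08, 6.29 and 4.53 CPM in WT cerebellum, 2.14, 1.71 and 1.08 in the striatum and 1.51, 2.51 and 1.42 in the prefrontal cortex. The cerebellum was above both without overlap, by 1.49 and 1.35, and Cox7a1 made up 3.27% ± 0.82 of the pair there against 1.35% ± 0.24 in the striatum. Cox7b2 had 2.25, 2.56 and 3.64 CPM in the cerebellum, 1.34, 1.56 and 0.46 in the striatum and 1.23, 0.68 and 0.47 in the prefrontal cortex, with differences of 1.31 and 1.81. The first of these was lost without WT cerebellum replicate 3 or WT striatum replicate 3.

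Cox8b and Cox6b2 varied between libraries of the striatum. Cox8b had 2.00, 2.82 and 0.31 CPM in WT striatum and 3.65, 1.76 and 3.70 in KI striatum, against 0.32, 0.59 and 0.24 in WT cerebellum and 0.34, 0.20 and 0.27 in WT prefrontal cortex. WT striatum replicate 3 lay among the other regions. Choroid plexus markers summed in the same order to 6643, 8757 and 1509 CPM in WT striatum, to 5198, 4145 and 7060 in KI striatum, and to 10.96 to 20.9 in WT prefrontal cortex. In the cerebellum, KI replicate 3, with 4796 CPM of these markers, had the highest Cox8b level of the region at 0.95 CPM, but WT replicate 1, with 1904 CPM of them, had less Cox8b than WT replicate 2, with 14.5 CPM. Cox6b2 had 3.94, 5.72 and 1.93 CPM in WT striatum, in the same order, and 6.75, 5.96 and 4.21 in WT cerebellum. The part of choroid plexus tissue in these values was not tested. Cox8b differed by 2.62 ± 0.67 on the log2 scale between WT striatum and prefrontal cortex (adjusted p = 0.00649). Its difference of -2.12 ± 0.64 between cerebellum and striatum (adjusted p = 0.00955) was lost without WT striatum replicate 2. Cox6b2 was higher by 1.48 in striatum and by 2.03 in cerebellum than in prefrontal cortex, where it had 1.30, 0.88 and 1.95 CPM, and the first was lost without WT striatum replicate 2 or WT prefrontal cortex replicate 2.

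**Figure D5:**
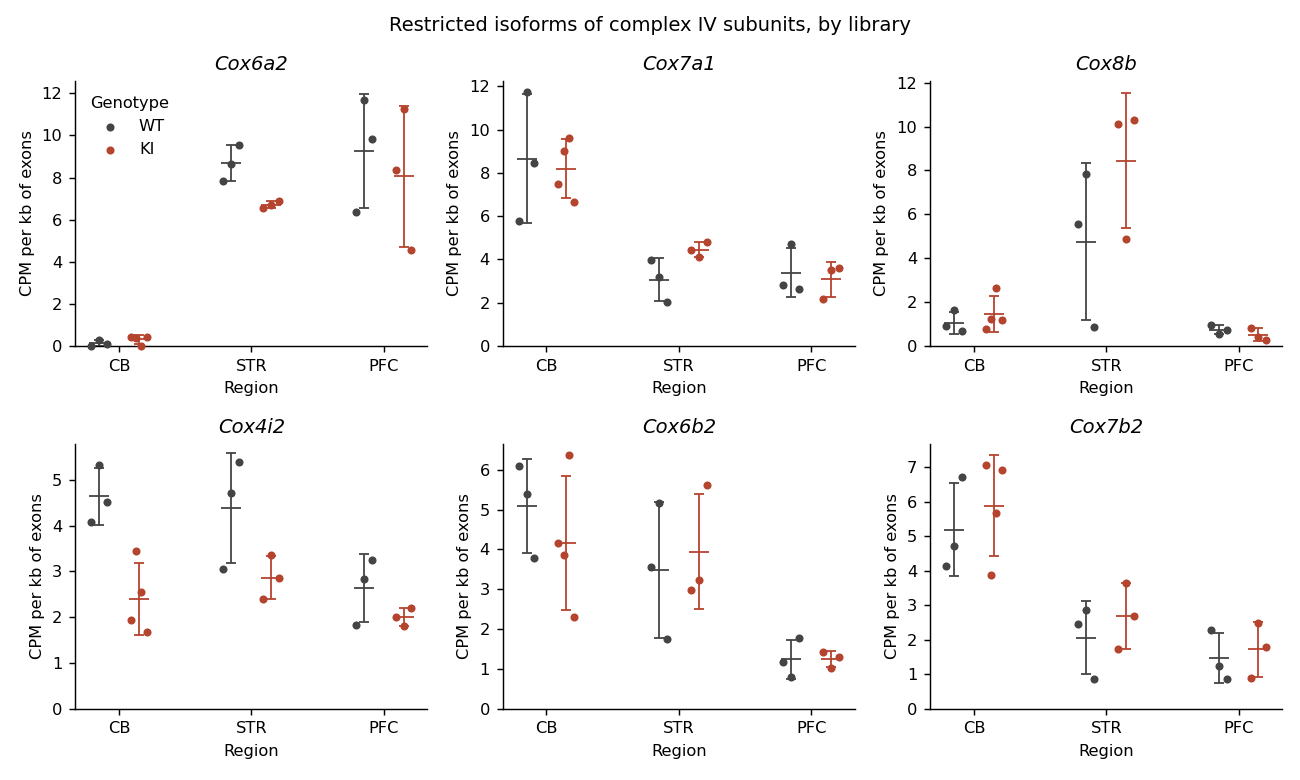
Level in CPM per kb of exon (vertical axis) of 6 restricted complex IV isoforms in the cerebellum, striatum and prefrontal cortex (horizontal axis). Each point is a library, dark grey for WT and red for KI, with the mean and SD of the group; Cox6a2 is near 0 in the cerebellum only, Cox7a1 and Cox7b2 are highest there, and Cox4i2 is lower in each KI cerebellum library than in each WT library.

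Upstream sequence also differed between partners. RefSeq (GRCm38.p6) gave windows from 250 bases before to 50 after the start for 53 of the 65 members, without Cox6a2. Of these 53, 22 held the SP1 box GGGCGG on either strand (41.5%, against 38.2% of 27025 genes), 11 the ETS site CCGGAAG (20.8% against 9.93%), 8 the YY1 site AAGATGG (15.1% against 7.28%), 3 the consensus NRF1 site (5.66% against 1.07%) and 6 the letters TATAAA (11.3% against 15.7%). Those 3 with the NRF1 site were Cox6a1, Ndufa11 and Uqcrc1, and those with TATAAA were Cox7b2, Cox8b, Ndufa3, Ndufa7, Ndufb7 and Ndufs7. The SP1, ETS, YY1 and NRF1 factors are known to act at promoters of respiratory genes, and such a match is a description of letters alone. The 120 bases before the start are shown for Cox6a1, an abundant subunit with several of these motifs (chr5:115348959-115349078, minus strand), and for the pairs Cox8a (chr19:7217617-7217736, minus) with Cox8b (chr7:140900447-140900566, minus) and Cox7a2 (chr9:79759854-79759973, minus) with Cox7a1 (chr7:30184051-30184170, plus), which set a widely expressed form beside a restricted one. Capitals mark the SP1 box and the ETS site where they fall within these bases.
Cox6a1: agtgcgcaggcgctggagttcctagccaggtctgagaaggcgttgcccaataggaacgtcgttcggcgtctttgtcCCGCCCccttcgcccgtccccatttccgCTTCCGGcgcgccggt
Cox8a: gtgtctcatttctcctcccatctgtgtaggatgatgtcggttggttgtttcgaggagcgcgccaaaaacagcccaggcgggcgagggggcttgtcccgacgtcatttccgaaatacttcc
Cox8b: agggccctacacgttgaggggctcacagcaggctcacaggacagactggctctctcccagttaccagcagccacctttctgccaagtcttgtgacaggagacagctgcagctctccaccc
Cox7a2: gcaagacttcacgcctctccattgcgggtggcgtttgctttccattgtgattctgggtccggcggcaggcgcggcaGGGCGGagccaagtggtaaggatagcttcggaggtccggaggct
Cox7a1: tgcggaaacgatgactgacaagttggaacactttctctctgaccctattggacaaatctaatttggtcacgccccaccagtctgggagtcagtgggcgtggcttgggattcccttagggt

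The stretch of Cox6a1 held 15 CG dinucleotides. Cox8a held 9 and its restricted partner Cox8b 1, and Cox7a2 held 10 and Cox7a1 4. The pattern did not extend to each pair, since Cox6b1 held 11 and Cox6b2 6 but Cox7b held 3 and Cox7b2 7.

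The protein genes of mitochondrial DNA, whose products join the nuclear subunits in complexes I, III and IV, behaved apart from them. Of 13 such genes, 7 were tested, and 6 had at most 1 count in any library. Whether reads of these 6 were lost in mapping or counting was not tested, so their counts are not taken as a level of expression. The values below cover the 7 tested genes alone. In KI mice, 1, 2 and 1 of the 7 were higher in the cerebellum, striatum and prefrontal cortex, with medians of -0.06, -0.09 and -0.07 and 0 called. Between WT regions, 7 of 7 were called lower in the cerebellum than in the striatum (median -0.80, 28.7% of all genes) and the prefrontal cortex (median -0.52, 26.9%). Called higher in the striatum than in the prefrontal cortex were 3, mt-Cytb, mt-Nd2 and mt-Nd4 (14% of all genes). For example, mt-Cytb, the cytochrome b of complex III, had 2457, 2305 and 2430 CPM in WT cerebellum, 4800, 5131 and 4534 in the striatum and 3576, 3720 and 4005 in the prefrontal cortex, with no overlap. The nuclear subunits had medians near 0 in the same comparisons. Regulators of mitochondrial biogenesis had medians of 0.28 and 0.44 in the cerebellum against the striatum and prefrontal cortex. Of these 14, 6 and 8 were called higher (27.8% and 25.1% of all genes) and 2 and 1 lower (28.7% and 26.9%). Assembly factors had medians of -0.10 and -0.05, with 7 and 7 of 42 called higher and 11 and 10 lower, no larger shares than of all genes. Cytosolic ribosomal proteins had medians of -0.47 and -0.51, with 1 and 1 of 76 called higher and 58 and 58 lower.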

How the data were processed

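Total RNA of 3 brain regions was made into libraries with the SMART-Seq v4 and Nextera XT kits, per the labels. The submitters' processing notes name bcl2fastq 2.17.1.14, STAR 2.5.2b, HTSeq, DESeq2 1.10.1 and genome build GRCm38.p3, while the study's methods name Cufflinks and Cuffdiff; the use of strand is not given in the sources used here. The authors deposited raw counts per gene for each library and a signal table in which each library's counts were divided by its DESeq2 size factor.

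Names, positions and exon lengths came from GENCODE M21 and promoter sequences from RefSeq (GRCm38.p6). For the tests, edgeR 4.0.16 was run in R 4.3.3: filterByExpr over the 6 groups left 16841 genes, libraries were scaled by TMM, and 1 quasi-likelihood fit with a mean per group and 13 residual degrees of freedom gave all contrasts. Benjamini-Hochberg adjustment covered all 16841 genes, with a threshold of 0.05. Log2 CPM used a prior count of 2, and 95% intervals used 16.8 degrees of freedom. The common biological coefficient of variation was 0.191. Copies were found with blastn 2.17.0+ (at least 95% identity over at least 150 bases). The fit was tested on simulated data.

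Alternatives were DESeq2 1.42.0, DESeq2 size factors in edgeR, other filters, the compared groups alone, limma 3.58.1 on log2 of the deposited normalized table with a pseudocount of 1, a correction for GC content and length with mgcv 1.9.3, a covariate from Xist and Y-linked genes, the replicate number as a block, and each library left out. The alternatives with copies added, without Ndufs5, with a block over striatum and prefrontal cortex alone and with centred curves were chosen after seeing the data. Members and lists were chosen with earlier results of these data known. Any member may be named: those past the threshold, the highest and lowest of each complex in each KI comparison, and all paired isoforms; the KI value of Ndufa11, the chromosome 17 members and mt-Cytb were added after their values were seen. From other lists, only genes past the threshold are named. The values of 1 member are not reported here, although it is counted.

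Replicate numbers paired striatum with prefrontal cortex libraries, whose deviations from group means correlated at 0.233 to 0.327 in WT and 0.317 to 0.368 in KI mice. No other groups were paired (minimum of 0.1 in each pair). The labels do not say that equal numbers mark the same mouse. The 21 pairs of libraries of the same group differed by more than sampling noise, so none was treated as a copy. Counting intervals cover counting error alone. The labels give 3 to 4 mice per genotype without tying libraries to mice, and p-values measure the spread between these libraries.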

Additional observations from a re-analysis of the deposited data

Results flagged for a closer look

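Only the KI cerebellum, with 4 libraries, was large enough for a test of outlying libraries. In it, 4 of 65 members had a library far from the others. Chance alone flags about 1 in 20 groups, so 4 of 65 is close to the number chance would give. The test was not run over all genes, so no share of all genes stands beside it. For 3 of the 4 members the far library was KI replicate 4, which had the lowest median over members in the group. Cox6c, a small complex IV subunit, had 191 CPM there and 239 to 248 in the others, a gap of 0.857 of the range. Cox7c, another, had 74.0 CPM against 92.0 to 96.0, a gap of 0.836. Ndufb3, an accessory complex I subunit, had 87.7 CPM against 101 to 104, a gap of 0.846. Cox6a2 had 0 CPM in KI replicate 3 against 0.28 to 0.30, a gap of 0.950, at a level of few counts.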

How the results depend on the processing

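The number of members called for KI averaged over the regions was 0, and became 1 with the GC and length correction (Ndufa11), 1 with centred curves (Ndufa11), 2 with DESeq2 (Ndufa11 and Cox4i2) and 0 to 2 with a library left out: Cox4i2 without CB KI replicate 2, STR WT replicate 1 or PFC WT replicate 1, Ndufa11 without PFC KI replicate 3, and Ndufa11 and Ndufc2 without CB KI replicate 4. The count within each region stayed at 0 under each alternative run. For the WT cerebellum against the striatum, the 14 lower calls became 8 without a filter, 4 with the GC and length correction and 5 to 20 with a library left out, the 8 higher calls became 21 with that correction, and the median moved to 0.10. Against the prefrontal cortex, the 7 lower calls became 12 with the replicate block across regions, 12 with centred curves, 1 with the GC and length correction and 4 to 14 with a library left out, the 12 higher calls became 26 with that correction, and the median moved to 0.17. The fewest and most came without CB WT replicate 3 and 2 for the striatum, and without CB WT replicate 1 or PFC WT replicate 1 and without CB WT replicate 2 for the prefrontal cortex. Numbers of all genes called with a library left out are not given here. With the longest transcript as length the median level was 137 CPM per kb.

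The replicate block over the paired regions gave 7 calls between striatum and prefrontal cortex in place of 6, the added member being Ndufs1 (adjusted p = 0.0408), and lost none.

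Among medians, the sign changed for the WT cerebellum against the striatum with the GC and length correction and for KI prefrontal cortex without KI replicate 2 (-0.0077). The KI striatum median was 0.04 with that correction. Among single members, signs changed for the following KI differences, none of them called. In the cerebellum, Uqcrb was 0.055 with the replicate block, 0.014 with the block and the GC and length correction, 0.0071 with the covariate for sex and -0.071 to 0.066 with a library left out. In the striatum, Uqcrb was 0.0051 with the covariate and -0.081 to 0.028 with a library left out, Sdhc -0.093 to 0.00090 with a library left out, and Ndufs5 -0.0083 with copies added. In the prefrontal cortex with a library left out, Uqcrc1 was -0.062 to 0.10 and Cox7b2 -0.19 to 0.67. Averaged, Sdhc was 0.0077 with the replicate block, 0.0018 with the covariate and -0.024 to 0.014 with a library left out. Uqcrb averaged was -0.0045 with DESeq2 size factors, -0.0050 with at least 10 counts in every library, -0.014 with the GC and length correction, -0.015 with centred curves, -0.0065 with limma, -0.0046 with DESeq2, -0.00064 with copies added and -0.032 to 0.026 with a library left out. The cause of these shifts was not tested. With 3 or 4 libraries a group, the standard error of a KI difference was a median of 0.09 to 0.10 on the log2 scale, so shifts of the size of the members' median were not detectable in single genes.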
